A study of Mus musculus with 4 samples.

Results

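The genes of the mouse major histocompatibility complex (MHC), named H2, and the genes that load their products with peptide were examined in olfactory bulb RNA of mice that lack Sp8 and Sp9 in the interneuron lineage. Members were all genes whose symbol begins with H2-, together with B2m, Tap1, Tap2, Tapbp, Psmb8, Psmb9, Cd74, Ciita, Nlrc5 and Erap1. This rule, which uses names and no measured values, gave 47 of the 20032 genes listed. Of these, 25 reached a mean of 1 FPKM (fragments scaled by transcript length and by the mapped fragments of the library) over the 4 libraries and were tested, and 22 did not. DCKO bulbs (double conditional knockout) carried Sp8 Flox/Flox, Sp9 Flox/Flox and the Dlx5/6-CIE transgene, in which a Dlx5/6 enhancer active in GABAergic precursors drives Cre. Littermate controls carried no Cre, and their Flox alleles are not given in the labels. Both groups had 2 libraries of whole bulb taken at postnatal day 11, from mice of mixed background (C57BL/6J, 129S6 and CD1). Cells that do not derive from Dlx5/6-expressing precursors, among them microglia, vessels and projection neurons, lie outside the reach of this Cre. The labels do not say whether the 2 libraries of a group come from separate animals. The p-values weigh each difference against the spread between these libraries only, with each gene's spread moderated by that of genes of similar level.

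MHC class I molecules pair a heavy chain with the light chain beta-2-microglobulin and display peptides made by the proteasome and carried into the endoplasmic reticulum by the TAP transporter. Class II molecules are alpha and beta chain pairs that display peptides from endosomes and are typical of antigen-presenting cells. In the brain, microglia and endothelial cells are the main class I expressing cells, some neurons express class I genes as well, and class II is found mostly on border macrophages, dendritic cells and activated microglia. The H2 region is highly polymorphic, and a fixed set of its alleles on 1 chromosome is called a haplotype. The mouse genome reference is C57BL/6J, whose haplotype b lacks a working H2-Ea promoter. Reads from other haplotypes can be lost on that reference or assigned to a related H2 gene. The labels give no haplotype for any animal, and the part of haplotype in the values below was not tested.

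The deposited scaled counts summed to between 14632502 and 15400982 per library. The authors' scaling itself brings such sums together, so they do not show the sequencing depth, which is not given in the sources used here. Sp8 stood at 1.68 and 2.03 FPKM in DCKO libraries 1 and 2, against 32.0 and 26.7 FPKM in control libraries 1 and 2. Sp9 stood at 0.0674 and 0.236 FPKM in DCKO, against 24 and 30.7 FPKM in controls. All 5 markers of bulb projection neurons were higher in DCKO and all 6 bulb interneuron markers were lower. Tbx21, a projection neuron marker, had 84.7 and 92.5 FPKM in DCKO, against 27.4 and 30.7 FPKM in controls. Bulb tissue was thus present in both groups. In the 4 libraries together the test called 13.0% of 13434 genes higher and 14.3% lower in DCKO, with a median log2 change of -0.02 over all tested genes. With the libraries centred on their medians, the calls were 2225 higher and 1580 lower, against 1747 higher and 1926 lower without centring.

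Of the 25 tested members, 13 were higher in DCKO, 3 were lower and 9 did not pass the threshold (limma, Benjamini-Hochberg adjusted p below 0.05 over all 13434 genes). The share of tested members called was 52.0% higher and 12% lower, beside 13.0% and 14.3% of all tested genes. Both DCKO libraries lay above both controls for 15 of the 25 and below them for 5, beside 33.9% and 37.6% of all tested genes. Their median log2 change was 0.52 on the log2(FPKM + 1) scale, DCKO minus control. Of the called members, H2-Ea-ps, H2-Eb1 and H2-T22 (all higher) passed the filter only through their DCKO values, and H2-M5 (lower) only through its control values. Such genes had to differ between groups, so the counts and the median describe the tested members and lend them no support. Members beside the filter were H2-Eb1, H2-M3 and H2-Ea-ps, with means of 1.04, 1.11 and 1.18 FPKM, and H2-DMb2 with a mean of 0.836 FPKM. Higher in DCKO were the light chain B2m and 5 of the 6 genes that supply and load class I peptides. Of the class II genes and Cd74, 4 of the 5 tested were higher and 6 were below the filter. None of the 3 classical class I heavy chains was higher. Among the 10 members outside the H2 name, 7 of the 8 tested were higher and 1 did not pass. Among the 17 tested H2 genes, 6 were higher, 3 lower and 8 did not pass. Members coded outside chromosome 17, which carries the H2 region, were B2m, Cd74, Erap1, Ciita and Nlrc5, and the first 3 of these were tested and were higher in DCKO.

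**Figure D1:**
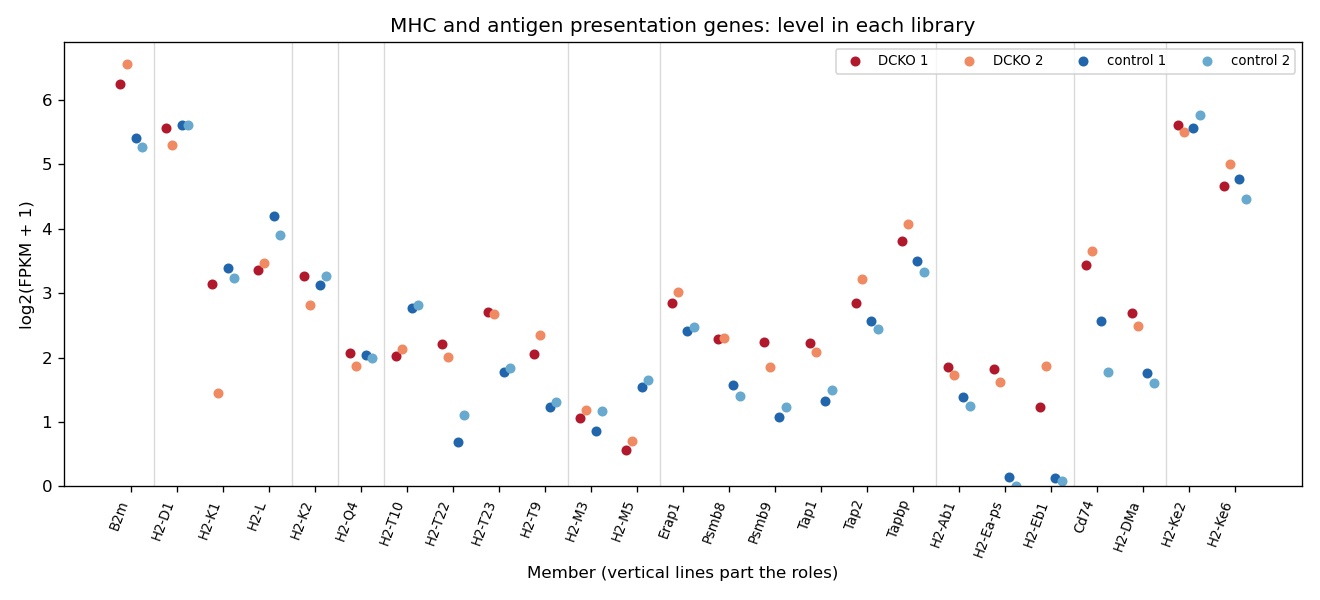
Level of the 25 tested members in each library on the log2(FPKM + 1) scale, with DCKO libraries in reds and control libraries in blues, and vertical lines between the roles. Both DCKO points lie above both control points for B2m, H2-T23, H2-DMa and all 6 genes of peptide supply, and H2-K1 of DCKO library 2 lies apart from the other 3 libraries.

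**Figure D2:**
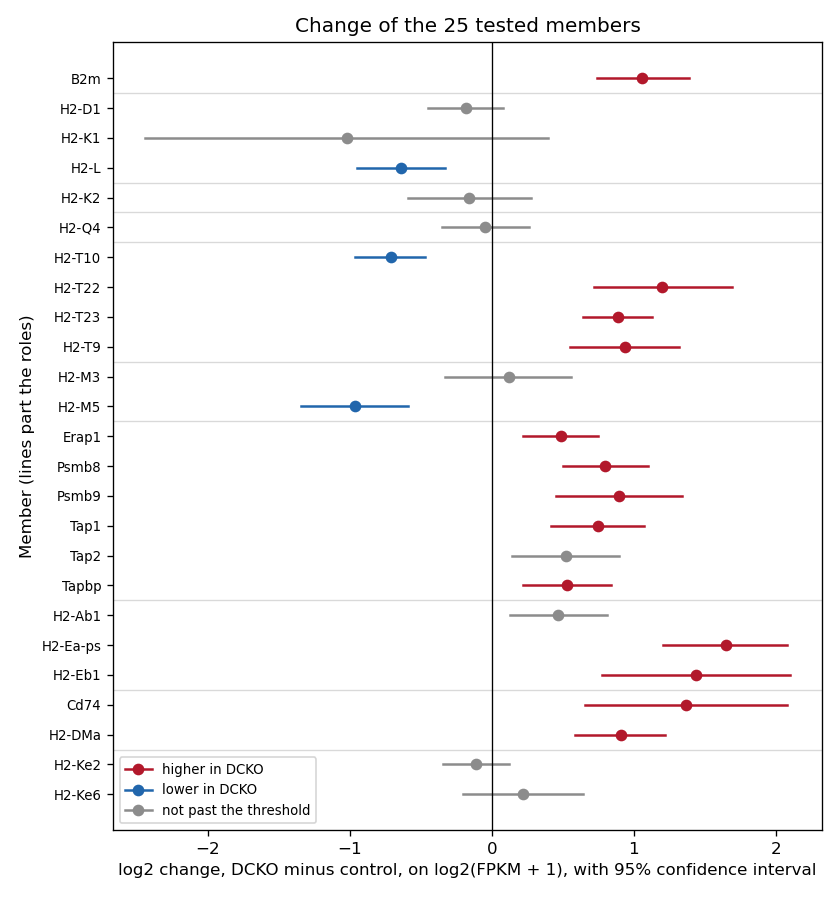
Log2 change of the 25 tested members, DCKO minus control, with 95% confidence intervals from limma, coloured by the call. The 13 higher members include B2m at 1.06 and H2-Ea-ps at 1.65, the 3 lower members are H2-L, H2-T10 and H2-M5, and the interval of H2-K1 is the widest of the 25.

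Promoter windows are shown for 5 members that stand for the class I heavy chains, the light chain, the T region and class II. They are RefSeq sequences on GRCm38.p6, from 250 bases before to 50 bases after the transcription start, written 5′ to 3′ on the gene's strand. In the first 4, capitals mark the kappa B letters GGGATTCCC of class I enhancer A, the interferon element core TTTCACTT, the spaced interferon letters TTTCNNTTT or the letters GAANNGAAA with another spacing, on either strand. In H2-Eb1 capitals mark CCAAT on either strand.
H2-K1, chr17:34000298-34000597, - strand: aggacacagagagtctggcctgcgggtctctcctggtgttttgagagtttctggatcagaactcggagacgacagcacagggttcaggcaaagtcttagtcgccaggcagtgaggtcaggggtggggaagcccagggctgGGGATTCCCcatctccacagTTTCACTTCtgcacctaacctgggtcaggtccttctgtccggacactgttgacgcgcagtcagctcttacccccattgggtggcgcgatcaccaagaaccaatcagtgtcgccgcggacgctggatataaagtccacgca
H2-D1, chr17:35262844-35263143, + strand: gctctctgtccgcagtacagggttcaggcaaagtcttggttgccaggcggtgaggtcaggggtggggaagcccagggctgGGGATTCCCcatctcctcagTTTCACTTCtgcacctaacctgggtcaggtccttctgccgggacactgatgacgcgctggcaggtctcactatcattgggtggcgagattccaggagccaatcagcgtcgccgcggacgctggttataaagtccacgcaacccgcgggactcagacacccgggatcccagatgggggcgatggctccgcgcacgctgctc
B2m, chr2:122147437-122147736, + strand: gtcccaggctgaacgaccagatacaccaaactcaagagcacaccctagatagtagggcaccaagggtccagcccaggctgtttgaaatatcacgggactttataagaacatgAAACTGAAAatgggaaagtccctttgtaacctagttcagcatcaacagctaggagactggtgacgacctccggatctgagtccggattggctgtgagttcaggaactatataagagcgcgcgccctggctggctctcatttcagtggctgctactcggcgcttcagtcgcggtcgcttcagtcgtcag
H2-T23, chr17:36032652-36032951, - strand: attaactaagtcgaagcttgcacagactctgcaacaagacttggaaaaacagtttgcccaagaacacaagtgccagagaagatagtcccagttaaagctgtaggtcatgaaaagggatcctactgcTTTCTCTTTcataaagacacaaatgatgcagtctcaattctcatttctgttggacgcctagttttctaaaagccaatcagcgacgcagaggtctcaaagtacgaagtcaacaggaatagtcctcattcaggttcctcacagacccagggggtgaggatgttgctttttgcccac
H2-Eb1, chr17:34305617-34305916, + strand: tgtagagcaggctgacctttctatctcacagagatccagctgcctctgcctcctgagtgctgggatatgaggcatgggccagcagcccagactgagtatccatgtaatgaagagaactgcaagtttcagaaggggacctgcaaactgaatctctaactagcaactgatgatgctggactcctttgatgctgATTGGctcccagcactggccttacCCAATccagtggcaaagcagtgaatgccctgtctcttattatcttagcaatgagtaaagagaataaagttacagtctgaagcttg
Of the 47 members, 30 had a window, 16 of them tested. GGGATTCCC occurs in 116 of 32851 mouse promoter windows (0.353%) and in 4 members, H2-K1, H2-D1, H2-Q6 and H2-Q7, and neither of the 2 tested ones, H2-K1 and H2-D1, was called. TTTCACTT occurs in 1.60% of windows and in 10 members, and of the 6 tested, Erap1 and H2-T22 were higher in DCKO while H2-K1, H2-D1, H2-Q4 and H2-M3 were not called. TTTCNNTTT, which can overlap TTTCACTT, occurs in 10.6% of windows and in 7 members, and the 5 tested, B2m, Erap1, H2-DMa, H2-T22 and H2-T23, were each called higher, as were 5 of the 11 tested members without it. GAANNGAAA, which also overlaps TTTCACTT in H2-K1 and H2-D1, occurs in 7.52% of windows and in 8 members, and of the 4 tested, H2-K1, H2-D1, H2-M3 and H2-Q4, none was called. The spacing of the letters searched thus decided which members matched, and these forms were chosen after a longer form and its matches had been seen, so the split by call is a description with no test. CCAAT occurs in 37.4% of windows and in 25 of the 30 members with one. A gene can have several windows, as H2-K1 does, so for every form the share of windows and the count of members are unlike measures. These matches describe the reference letters and show neither a bound site nor the alleles of these mice.

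B2m, the light chain of every class I molecule, was the most abundant member in DCKO bulbs. B2m (chromosome 2, 122147686 to 122153083, + strand) stood at 75.2 and 93.8 FPKM in DCKO, against 41.6 and 37.7 FPKM in controls. Both DCKO libraries lay well above both controls. The means were 84.5 ± 13.2 FPKM in DCKO and 39.7 ± 2.75 FPKM in controls (SD, n = 2 each), 2.13-fold higher, with a log2 change of 1.06 (SE 0.12, limma adjusted p = 0.00749). The call held in all 14 alternative settings. B2m lies within Patl2 on the opposite strand, and Patl2 was at most 0.0672 FPKM in any library.

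The classical heavy chains, which bind B2m and present peptide to CD8 T cells, did not share that difference. H2-D1 (chromosome 17, 35262730 to 35267499, + strand) had 46.2 and 38.4 FPKM in DCKO, against 47.7 and 48.0 FPKM in controls. Both DCKO values were lower, but the difference did not pass (log2 change -0.18, 95% confidence interval -0.45 to 0.08, limma adjusted p = 0.239). H2-K1 (chromosome 17, 33996017 to 34000347, - strand) had 7.86 and 1.73 FPKM in DCKO, against 9.53 and 8.44 FPKM in controls. DCKO library 2 was 4.54-fold below DCKO library 1, which itself lay close to the controls. This gap between the DCKO libraries, 1.70 on the log2(FPKM + 1) scale, was exceeded by 29 of 13434 tested genes (0.216%). H2-D1 differed between the same libraries by 0.26, so H2-K1 per unit of H2-D1 was 0.17 and 0.0451 in DCKO, against 0.20 and 0.176 in controls. The test of H2-K1 over 4 libraries did not pass (log2 change -1.02, 95% confidence interval -2.44 to 0.40, adjusted p = 0.219). It rests on DCKO library 2: the log2 change was -0.17 without it (adjusted p = 0.291) and -1.87 without DCKO library 1 (adjusted p = 0.0126).

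H2-L, a classical heavy chain that not every haplotype carries, was lower in DCKO. It stood at 9.27 and 10.1 FPKM in DCKO, against 17.4 and 14.0 FPKM in controls, and the groups did not overlap (log2 change -0.64, SE 0.12, limma adjusted p = 0.0217). The call was lost without control library 1 (adjusted p = 0.0601), DCKO library 1 (0.0796) or DCKO library 2 (0.0536). H2-K2, annotated as a transcribed pseudogene next to H2-K1, had 8.60 and 6.03 FPKM in DCKO, against 7.70 and 8.63 FPKM in controls, and did not pass (log2 change -0.16). These genes are near-identical copies over much of their length, and how the authors' counting split shared reads is not given in the sources used here, so each value is uncertain. Summed over H2-K1, H2-D1 and H2-L, the FPKM was 63.3 and 50.2 in DCKO, against 74.6 and 70.5 in controls, while B2m was higher in DCKO.

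Class I genes of the T region were called in opposite directions. H2-T23 (chromosome 17, 36029773 to 36032855, - strand), which encodes the Qa-1 molecule seen by natural killer cell receptors, had 5.56 and 5.40 FPKM in DCKO, against 2.41 and 2.58 FPKM in controls. The libraries of each group agreed within 0.07 on the log2(FPKM + 1) scale, and the change was 0.89 (SE 0.09, limma adjusted p = 0.00615). The gene overlaps A930015D03Rik on the opposite strand, whose log2 change was -0.07 (not called). H2-T10, H2-T22 and H2-T9 are closely related genes, and the products of H2-T10 and H2-T22 are known as ligands of gamma delta T cell receptors. How reads shared by these genes were split is not given in the sources used here, so each of their values is uncertain. H2-T10 (chromosome 17, 36115876 to 36121465, - strand) was lower in DCKO, at 3.06 and 3.40 FPKM, against 5.83 and 6.03 FPKM in controls (log2 change -0.71, SE 0.10, adjusted p = 0.00988). H2-T22 (chromosome 17, 36037128 to 36042747, - strand) was higher, at 3.61 and 3.02 FPKM in DCKO, against 0.615 and 1.16 FPKM in controls (log2 change 1.20, SE 0.19, adjusted p = 0.0142). It passed the filter only through its DCKO values, and its call was lost without DCKO library 1 (adjusted p = 0.0615). H2-T9 was higher as well, at 3.14 and 4.12 FPKM in DCKO, against 1.34 and 1.48 FPKM in controls (log2 change 0.94, SE 0.15, adjusted p = 0.0145).

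How the 3 genes together compared depended on the measure. Their summed scaled fragment count was 366 and 389 in DCKO, against 380.1 and 419 in controls, and these ranges overlap. Their summed FPKM was 9.80 and 10.5 in DCKO, against 7.79 and 8.67 in controls, and both DCKO libraries lay above both controls. H2-T10 held 47.7% and 48.8% of the summed scaled count in DCKO, against 85.9% and 82.5% in controls. H2-T22 held 28.7% and 22.5% in DCKO, against 4.66% and 8.01% in controls, and H2-T9 held 23.6% and 28.7% in DCKO, against 9.40% and 9.5% in controls. The 2 DCKO libraries were alike in this split, and so were the 2 controls. Both sums were formed after the single values were seen. An annotated gene, Gm7030, covers all of H2-T10 on the same strand and was at most 0.707 FPKM.

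**Figure D3:**
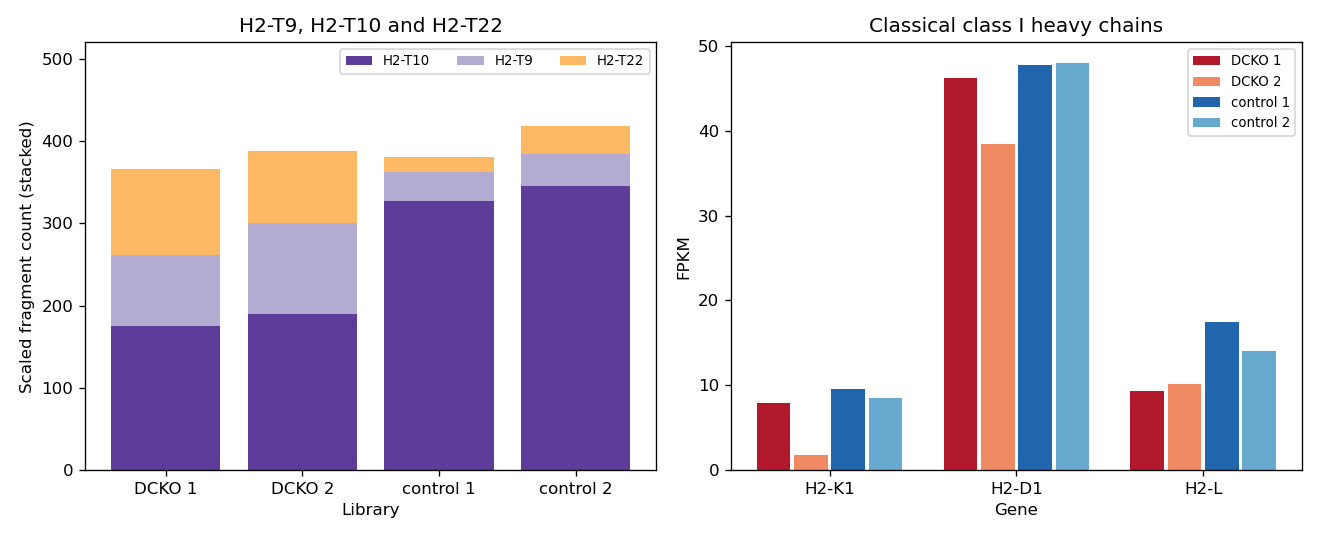
Left, scaled fragment counts of H2-T10, H2-T9 and H2-T22 stacked for each library, with sums of 366 and 389 in DCKO and 380.1 and 419 in controls but a smaller H2-T10 part in DCKO. Right, FPKM of the classical heavy chains in each library, where H2-K1 of DCKO library 2 stands at 1.73 FPKM.

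The remaining class I genes were low. H2-M5, of the M region, had 0.480 and 0.637 FPKM in DCKO, against 1.93 and 2.14 FPKM in controls, a 3.64-fold lower mean. Its log2 change was -0.96, or -1.70 with a pseudocount of 0.1, and it passed the filter only through the controls, so its call is no independent sign of a difference. H2-M3, which presents formylated peptides, had 1.09 and 1.28 FPKM in DCKO, against 0.817 and 1.24 FPKM in controls, and H2-Q4 had 3.21 and 2.67 FPKM in DCKO, against 3.12 and 3.0 FPKM in controls. Both overlapped between groups and did not pass. H2-T24 and H2-Bl lay below the filter but reached 1 FPKM in DCKO library 1. H2-T24 had 1.09 and 0.767 FPKM in DCKO, against 0.437 and 0.380 FPKM in controls, and H2-Bl had 1.37 and 0.338 FPKM in DCKO, against 0.0939 and 0 FPKM in controls. For both genes the 2 DCKO values lay above both control values, and neither was tested. The near-identical H2-Q6, H2-Q7, H2-Q8 and H2-Q9 together had 21.5 and 11.8 scaled counts in DCKO, against 5.04 and 5.79 in controls. Within this group H2-Q7 was at 0.00172 and 0.000829 FPKM in DCKO, against 0.196 and 0.194 FPKM in controls, and H2-Q9 was at 0.807 and 0.479 FPKM in DCKO, against 4.30e-05 and 2.96e-05 FPKM in controls. H2-Q7 and H2-Q9 thus lay on opposite sides, as in the T region, at a depth of few fragments. The other low class I genes, H2-Q1, H2-Q2, H2-Q5, H2-Q10, H2-T3, H2-M2, H2-M9 and H2-M10.2, stayed under 1 FPKM in every library, and H2-M9 was listed at 0 in all 4.

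Of the 6 members that make, carry and load class I peptides, 5 were higher in DCKO and Tap2 did not pass. The 6 all had both DCKO libraries above both controls, an arrangement that 33.9% of all tested genes showed. The immunoproteasome subunit Psmb8 had 3.88 and 3.94 FPKM in DCKO, against 1.99 and 1.65 FPKM in controls (log2 change 0.80, SE 0.12, limma adjusted p = 0.0120). The subunit Psmb9 had 3.71 and 2.61 FPKM in DCKO, against 1.10 and 1.34 FPKM in controls (log2 change 0.90, SE 0.17, adjusted p = 0.0236). For each, the lower DCKO library was clearly above the higher control. Tap1, a chain of the peptide transporter, had 3.69 and 3.23 FPKM in DCKO, against 1.51 and 1.81 FPKM in controls (log2 change 0.75, SE 0.13, adjusted p = 0.0173). Tap2, its partner chain, had 6.18 and 8.28 FPKM in DCKO, against 4.95 and 4.44 FPKM in controls, and missed the threshold (log2 change 0.52, 95% confidence interval 0.14 to 0.90, adjusted p = 0.0588). Tap1 and Psmb9 are neighbours on opposite strands whose annotated 5′ ends overlap by 212 bases.

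Tapbp, or tapasin, which tethers class I molecules to the transporter, and Erap1, the aminopeptidase that trims peptides, showed smaller differences. Tapbp had 13.1 and 15.8 FPKM in DCKO, against 10.3 and 9.02 FPKM in controls (log2 change 0.53, SE 0.12, limma adjusted p = 0.0330). Tapbp overlaps Zbtb22 on the same strand over 3422 bases, so a strand setting would not part their shared reads. Zbtb22 had 13.9 and 12.8 FPKM in DCKO, against 14.1 and 12.5 FPKM in controls. Erap1 had 6.17 and 7.14 FPKM in DCKO, against 4.34 and 4.58 FPKM in controls (log2 change 0.49, SE 0.10, adjusted p = 0.0284). Erap1 shares 834 bases with Cast on the opposite strand, which was also higher (log2 change 1.13). Several of these calls hung on single libraries. Psmb9 and Tap1 were lost without DCKO library 1 (adjusted p = 0.0608 and 0.0597). Tapbp was lost without control library 2 (0.112) or DCKO library 2 (0.0763), and Erap1 was lost without control library 1 (0.115), control library 2 (0.0895) or DCKO library 2 (0.0622). Psmb8 kept its call in the 13 alternatives that tested it, since the filter at 5 FPKM left it out.

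Class II transcripts were low, and the E chain genes were near 0 in controls. H2-Ea-ps (chromosome 17, 34341959 to 34344645, - strand), annotated as a polymorphic pseudogene, is the alpha chain gene of the E molecule. It had 2.55 and 2.06 FPKM in DCKO, against 0.108 and 0 FPKM in controls, or 23.4 and 19.1 scaled counts in DCKO, against 1.01 and 0 in controls. H2-Eb1 (chromosome 17, 34305867 to 34316674, + strand), the beta chain gene, had 1.34 and 2.67 FPKM in DCKO, against 0.10 and 0.0637 FPKM in controls, or 41.0 and 80.8 scaled counts in DCKO, against 3.02 and 1.93 in controls. Both genes were thus present in both DCKO libraries and at a few fragments or fewer in the controls. Their log2 changes were 1.65 (SE 0.17) and 1.44 (SE 0.26), and 4.05 and 3.46 with a pseudocount of 0.1. Both are counted among the higher members, but they passed the filter only through DCKO, and their values are given as a description. At most 0.2 FPKM in both controls with at least 1 FPKM in both DCKO libraries was found for 6 of 20032 genes, and these were 2 of them. Those limits were set after the values were seen. H2-Eb2, a further beta chain gene of the region, had at most 0.0134 FPKM.

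The A chain genes differed less evenly. H2-Aa had 0.630 and 2.13 FPKM in DCKO, against 0.213 and 0.137 FPKM in controls, and its mean of 0.778 FPKM was below the filter. H2-Ab1 had 2.63 and 2.31 FPKM in DCKO, against 1.63 and 1.37 FPKM in controls, and missed the threshold (log2 change 0.47, 95% confidence interval 0.13 to 0.81, limma adjusted p = 0.0550). Both had DCKO above control in every pair of libraries. DCKO library 2 had the higher values of H2-Aa and H2-Eb1, and DCKO library 1 those of H2-Ab1 and H2-Ea-ps.

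Genes that load class II molecules were higher where they could be tested. Cd74, the invariant chain that occupies the class II groove until peptide binds, had 9.81 and 11.6 FPKM in DCKO, against 4.94 and 2.43 FPKM in controls (log2 change 1.37, SE 0.27, limma adjusted p = 0.0255). The controls differed from each other 2.03-fold, and the call was lost without DCKO library 1 (adjusted p = 0.0785) or 2 (0.0943). H2-DMa, the alpha chain of the DM peptide exchanger, had 5.45 and 4.65 FPKM in DCKO, against 2.39 and 2.05 FPKM in controls (log2 change 0.91, SE 0.12, adjusted p = 0.0101). It overlaps Brd2 on the opposite strand, and Brd2 was lower in DCKO (log2 change -0.51). Its beta chain genes were below the filter and overlapped between groups. H2-DMb1 had 0.493 and 0.712 FPKM in DCKO, against 0.498 and 0.162 FPKM in controls, and H2-DMb2 had 1.01 and 0.941 FPKM in DCKO, against 1.10 and 0.292 FPKM in controls. For the DO chains, which modulate DM, H2-Ob had 0.286 and 0.527 FPKM in DCKO, against 0.120 and 0.0367 FPKM in controls, and H2-Oa had 0.179 and 0.246 FPKM in DCKO, against 0.0922 and 0.182 FPKM in controls.

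**Figure D4:**
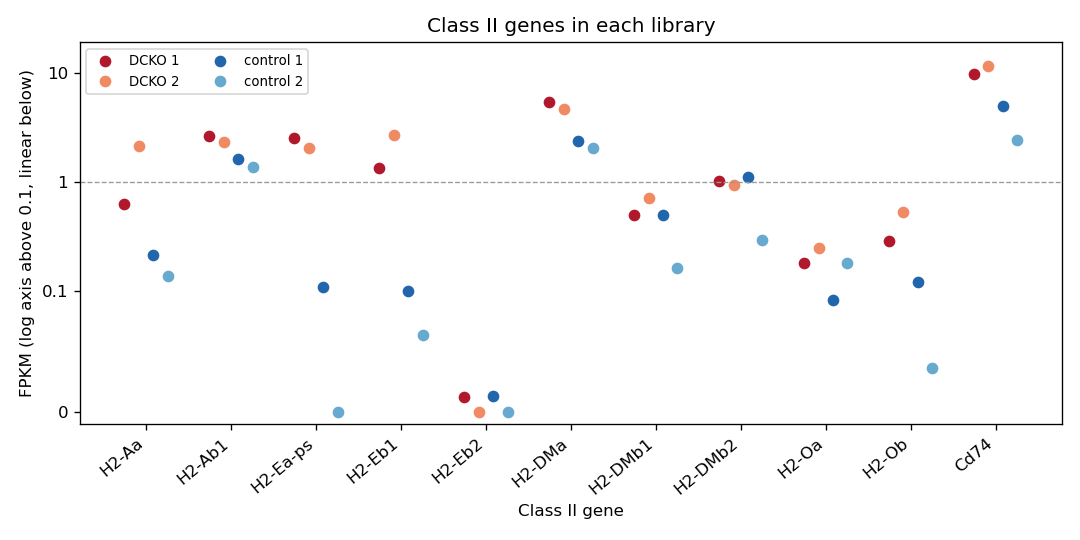
FPKM of the 10 class II genes of the H2 region and Cd74 in each library, on an axis that is logarithmic above 0.1 and linear below, with a dashed line at 1 FPKM. H2-Ea-ps and H2-Eb1 stand above 1 FPKM in both DCKO libraries and at 0.108 FPKM or less in both controls, while H2-DMb1 and H2-DMb2 overlap.

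The transactivators of both classes were low and not higher. Ciita, the master regulator of class II genes, had 0.165 and 0.217 FPKM in DCKO, against 0.315 and 0.369 FPKM in controls, with both DCKO values below both control values. It shares its locus with Dexi on the opposite strand, which was lower in DCKO (log2 change -0.29). Nlrc5, the class I transactivator, had 0.236 and 0.123 FPKM in DCKO, against 0.226 and 0.280 FPKM in controls. Neither gene was tested. H2-Ke2 and H2-Ke6 carry the H2 name for their place only. They encode a prefoldin subunit and a hydroxysteroid dehydrogenase. H2-Ke2 had 47.7 and 44.6 FPKM in DCKO, against 46.6 and 53.3 FPKM in controls, and H2-Ke6 had 24.3 and 31.3 FPKM in DCKO, against 26.5 and 21 FPKM in controls. Both overlapped and did not pass.

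Over the 22 members below the filter, 7 had both DCKO libraries above both controls, 2 had both below and 13 overlapped. Among all 6158 genes listed above 0 and below that filter, 21.8% were above and 14.7% below in this way. The 81 tested genes that lie between Tapbp and H2-M2 (chromosome 17, 33915899 to 37483552) and are not members were called in 34.6% of cases, 10 higher and 18 lower, beside 27.3% of all tested genes. Their median log2 change was -0.06.

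Other genes of antigen processing and of interferon signalling were higher or did not pass. Of 19 tested processing genes outside the members, 6 were higher and none lower, or 31.6% beside 13.0% of all tested genes. Among those that did not pass were the proteasome genes Psmb10 (log2 change -0.04) and Psme2 (-0.02) and the chaperones of class I assembly Calr (-0.26), Canx (0.06) and Pdia3 (-0.03). Both DCKO libraries lay above both controls for 9 of the 19 and below them for 3, beside 33.9% and 37.6% of all tested genes. The 3 were Calr, Rfx5 (-0.31) and Cd1d1 (-0.44), none of them called. Cathepsin S (Ctss), which cuts the invariant chain, was higher at 31.7 ± 2.03 FPKM in DCKO and 15.9 ± 0.736 FPKM in controls (SD, n = 2 each, log2 change 0.95, limma adjusted p = 0.00338). The class I like gene Hfe, of iron uptake, and the tapasin relative Tapbpl were also higher (log2 change 0.77 and 0.54). Of 15 tested interferon-stimulated genes, 6 were higher and none lower. Bst2, or tetherin, was higher at 9.86 ± 3.09 FPKM in DCKO and 3.87 ± 0.215 FPKM in controls (log2 change 1.13, adjusted p = 0.0203), as were the membrane protein Ifitm3 (0.97) and Ifit3 (0.79). Among the 9 below the filter, 8 had both DCKO libraries above both controls, beside 21.8% of all genes below it. Of the interferon receptors, both chains of the interferon gamma receptor were higher, Ifngr1 (log2 change 0.57) and Ifngr2 (0.74), and Ifnar1 and Ifnar2 did not pass. The genes Ifng and Ifnb1 were not among the 20032 genes listed, so they have no values. A list of 10 genes held receptors of class I molecules and partner genes, and 3 of them were tested. The adaptor Tyrobp, which microglia also express, was higher (log2 change 0.88). The transferrin receptor Tfrc (-0.07) and the insulin receptor Insr (0.07) did not pass. The other 7, among them Pirb, Lilrb4 and Cd8a, were below the filter. These lists were counted without a set test, and leaving out control library 2 reduced the processing genes called to 1 and the interferon-stimulated genes to 2. Without DCKO library 1 3 interferon-stimulated genes were called. Tyrobp was not called without DCKO library 1 or 2.

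Some markers of the cells that carry MHC molecules were also higher in DCKO. Of 12 microglia markers, 8 were higher, beside 13.0% of all tested genes, and 4 did not pass. They were led by C1qb (log2 change 1.22), Trem2 (1.0) and C1qc (0.91). P2ry12 (-0.03), Tmem119 (-0.00) and Itgam (-0.04) did not pass. The summed FPKM of the 12 was 236 and 248 in DCKO, against 149 and 152 in controls. B2m per unit of that sum was 0.318 and 0.378 in DCKO, against 0.280 and 0.249 in controls. Among markers of border macrophages, monocytes and dendritic cells, 2 of 4 tested were higher and 2 did not pass. Called were the macrophage markers Mrc1 (log2 change 1.01) and Lyve1 (0.87), while Pf4 (0.81) and the dendritic cell marker Zbtb46 (-0.16) did not pass. Lyve1 had means of 2.33 FPKM in DCKO and 0.837 FPKM in controls. It passed the filter only through its DCKO values, so its call lends no support. Of the 10 below the filter, 5 had both DCKO libraries above both controls, 1 (Flt3) both below, and 4 overlapped. The monocyte markers Ccr2 and Ly6c2 were among the 4. Of all genes listed above 0 and below the filter, 21.8% lay above and 14.7% below in this way. The summed FPKM of the list was 20.0 and 29.1 in DCKO, against 15.6 and 10.5 in controls. Of 10 endothelial markers, 4 were higher and 6 did not pass, with Slco1a4 first (log2 change 1.0), then Tek (0.51) and Tie1 (0.39). Their sum was 226 and 208 FPKM in DCKO, against 158 and 157 in controls. Of 5 red cell markers, 3 were higher, Hba-a1 (log2 change 2.20), Hbb-b2 (2.09) and Alas2 (1.87), with sums of 2203 and 3145 FPKM in DCKO, against 828 and 522 in controls. None of 11 T, B and NK cell markers reached the filter, their sums were 1.17 and 2.11 FPKM in DCKO, against 0.566 and 0.489 in controls, and Ncr1 and Nkg7 were listed at 0 in all 4 libraries. Olfactory sensory neuron markers, which should be rare in bulb RNA, summed to 201 and 164 FPKM in DCKO, against 294 and 113 in controls. None of the 5 passed. Gng13 was the largest part of each sum, at 146 and 119 FPKM in DCKO, against 144 and 68.0 in controls. Omp, Gnal, Cnga2 and Adcy3 were each highest in control library 1. Omp had 98.4 FPKM there, against 20.1 in control library 2 and 31.5 and 20.3 in DCKO. Cnga2 was at most 0.303 FPKM outside control library 1, with a control mean of 5.26 FPKM. The control libraries thus differed from each other in these markers, and the control spread of these genes includes that difference. Without control library 2 the microglia markers called were 5, without control library 1 or 2 the endothelial markers called were 1, and the border cell markers called were 0 without control library 2 or DCKO library 2 and 1 without DCKO library 1. The sensory neuron markers called were 1 without control library 1 and 4 without control library 2. The part of these cells in the MHC values was not tested. FPKM is a share of the library, so less RNA from other cells raises it as well. Markers of bulb interneurons summed to 69.2 and 104 FPKM in DCKO, against 672 and 645 in controls. In bulk RNA more cells of a type, more RNA per cell and less RNA from other cells cannot be told apart.

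**Figure D5:**
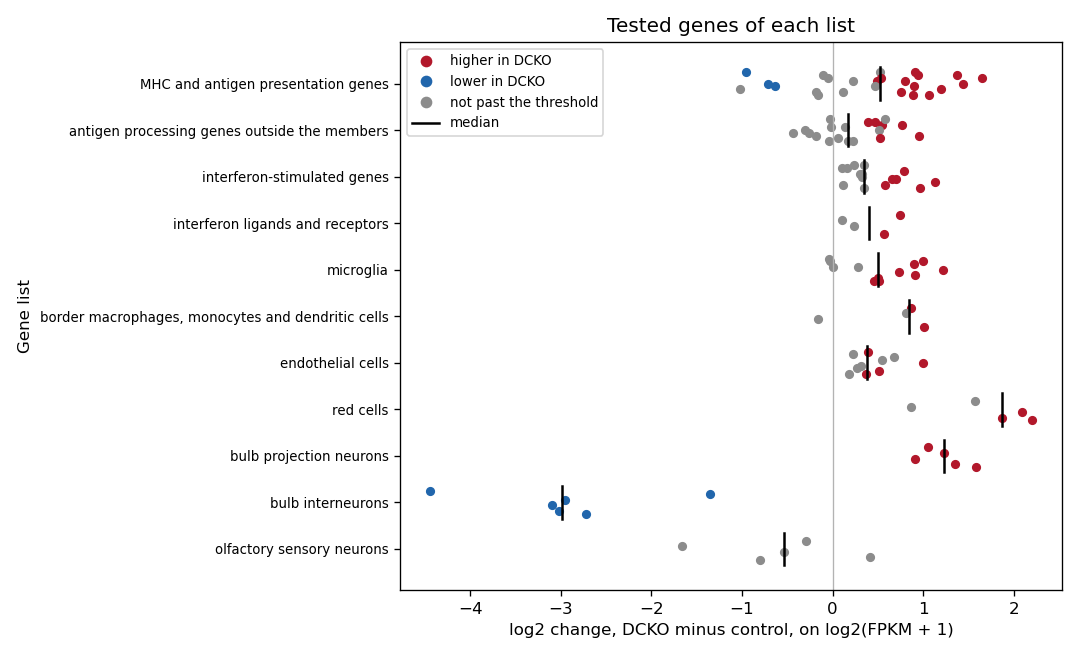
Log2 change of each tested gene, DCKO minus control, for the MHC and antigen presentation genes and 10 other lists, coloured by the call, with a black line at each median. The MHC members have a median of 0.52, beside 0.51 for microglia markers, and are the only one of the 11 lists with calls in both directions.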

How the data were processed

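Total RNA of whole olfactory bulbs was sequenced in 2 DCKO and 2 control libraries. TopHat, Cufflinks 2.1.1 and the build GRCm38.p4 are named, per the submitters' processing notes. For annotation, strand setting and shared reads, the steps were not given in the sources used here. Per the file headers, the authors deposited FPKM values and columns headed count. The count columns are treated as a signal that the authors scaled by 1 factor per library, so no count model was applied. Columns were mapped by the codes in the sample descriptions and all were mapped.

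The main test, DCKO minus control, was limma 3.58.1 (R 4.3.3) with an intensity trend. It used log2(FPKM + 1) of the 13434 genes whose mean over libraries reached 1 FPKM. Two-sided p-values were adjusted by Benjamini-Hochberg over all of them, with 0.05 as the threshold. This scale understates changes of low genes. An exact permutation of 2 against 2 libraries cannot go below p = 0.333. Members and gene lists were chosen with earlier results of these data known. Every member past the filter, the 10 members outside the H2 name and the class II genes are named, with up to 3 called genes of largest change from each other list, or in their place the 2 of highest mean. Genes named beyond this rule (low class I members, overlapping genes and other genes that did not pass) were chosen after their values were seen. Promoter letters were searched in forms shortened or respaced after the matches of a longer form were known. Coordinates are those of GENCODE M21 (GRCm38), on which 43 of 47 members were placed; H2-L, H2-T9, H2-Q8 and H2-Q9 were not. Of the 25 tested members, 16 overlap another annotated gene, and without a strand setting their reads cannot be told apart. Alternatives were the pseudocount, the filter, 3 scalings, the variance trend, a replicate block, the scaled counts and each library left out.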

Additional observations from a re-analysis of the deposited data

How the results depend on the processing

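The count of members called higher (13) lay between 10 and 15 over all alternatives except the filter at a mean of 5 FPKM, where 11 members were tested, 4 higher and 1 lower. With 1 library left out it ranged from 10 to 12, and the count of lower members (3) from 2 to 4. The members' median (0.52) was 0.29 with no filter (46 members) and 0.22 at 5 FPKM, where other members enter it, and 0.41 to 0.66 with 1 library left out. Over all genes, 806 to 1384 were higher and 1030 to 1875 lower with 1 library left out, with the lone library of a group assumed to vary like the other pair. The sign of H2-Q4 turned with median centring (0.01); with 1 library left out H2-Q4 ranged from -0.15 to 0.05, H2-K2 from -0.38 to 0.07 and H2-M3 from -0.04 to 0.27, none of them called. Cd74, Erap1, Psmb9 and Tapbp lost their calls with no filter (adjusted p = 0.0623, 0.0622, 0.0514 and 0.0680), and Psmb9 on scaled counts (0.0795). H2-Ab1 passed with median centring (0.0398), upper-quartile scaling (0.0463) and no trend (0.0333), and Tap2 with 3 scalings (0.0367 to 0.0449) and without DCKO library 1 (0.0345). H2-D1 passed without DCKO library 1 only (log2 change -0.31, adjusted p = 0.0460).

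Among the other lists, no filter gave 1 called T, B and NK cell marker and 3 antigen processing genes. It also gave 2 endothelial markers and 0 genes of the class I receptor list. The filter at 5 FPKM gave 0 border cell markers and 3 interferon-stimulated genes, and median centring gave 8 endothelial markers. With 1 library left out the called genes ranged from 1 to 8 for antigen processing, 2 to 7 for interferon-stimulated genes, 0 to 3 for border cells, 1 to 5 for endothelial cells, 5 to 7 for microglia, 0 to 1 for class I receptors and 0 to 4 for sensory neurons. The causes were not tested.

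Replicate numbers are shared between groups, but nothing says that they mark pairs, and the deviations of same-numbered libraries had a correlation of -0.0211. With the replicate block, 12 members were higher and 3 lower, 1312 genes were higher and 1418 lower, 2 endothelial markers were called, and Tapbp lost its call (adjusted p = 0.0540). The planned count test was not run, because the columns headed count are not whole numbers of fragments. Genes of few fragments, among them H2-Ea-ps, H2-Eb1 and the Q region, are limited by depth.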
